A study of Mus musculus with 6 samples.

Results

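The EGF receptor ligands and receptors were followed in pancreatic acini cultured for acinar-to-ductal metaplasia (ADM), in which explanted acini turn duct-like. The set held 10 genes of the 56953 in the count table, found by gene name: 6 ligands (Areg, Ereg, Hbegf, Tgfa, Btc and Egf) and 4 receptors (Egfr, Erbb2, Erbb3 and Erbb4). Each was matched by 1 row. Of the 10, 9 passed the filter on low counts and were among the 14738 genes tested, and Erbb4 did not pass.

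Bulk RNA-seq was performed on mouse pancreatic acini, the enzyme-secreting units of the exocrine pancreas, after 3 days in culture, with 2 libraries in each of 3 groups. WT acini carried no knockout, DD acini came from mice with a constitutive Dkk3 knockout in which exon 2 of the gene is replaced, and DD + rDKK3 acini were the same knockout given recombinant DKK3, a secreted glycoprotein, in the medium. The acini of all groups were embedded in Matrigel, and the culture medium held serum and dexamethasone. The labelled ages were 10 and 11 weeks in WT, 12 and 13 weeks in DD, and 14 and 15 weeks in DD + rDKK3, an even series of 1 week per library that may have been filled in and not recorded. As labelled, age cannot be told apart from group. The labels do not say whether the 2 libraries of a group came from separate mice, nor whether a DD library and the DD + rDKK3 library with the same number share a mouse. The p-values therefore measure the spread between these samples, which may be technical.

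Ligands of the EGF family are made as membrane-anchored precursors that ADAM proteases, chiefly ADAM17, cut free from the cell surface. EGFR binds Areg, Ereg, Hbegf, Tgfa, Btc and Egf proteins, pairs with itself or with ERBB2, ERBB3 or ERBB4, and signals through RAS and ERK and through PI3K. ERBB2 has no known ligand of its own, and ERBB3 has a weak kinase and signals mostly through its partners. In the exocrine pancreas, TGF-alpha and EGFR signalling are known to drive acinar cells toward a duct-like state.

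Library totals ranged from 12018473 to 19750401 counts, and levels are given as CPM, counts scaled to depth by TMM (trimmed mean of M values). Dkk3 was counted 10 times in WT 1, 1 time in WT 2 and 5 to 11 times in the 4 knockout libraries. That is too few to check the genotype, and gene counts do not separate exon 2 from the other exons. The library WT 2 is labelled female and the other 5 male. It had 16 Xist counts against 0 in the others, and its summed CPM of 4 Y-linked genes, 141.4, lay within the 118.7 to 146.7 of the libraries labelled male. Of 14 acinar markers, none was at 0 in any library, and their summed level was 99766 to 171057 CPM. DD 2 and DD + rDKK3 2 stood apart in the sum of 14 fibroblast and stellate markers (Col1a1, Pdgfra, Dcn and others), with summed levels of 857.4 and 954.5 CPM against 57.53 to 176.8 CPM in the other 4 libraries. Des of this list did not follow, at 1.293 CPM in DD 2 and 1.237 CPM in DD + rDKK3 2 against 0.4225 to 2.318 CPM in the other 4 libraries. Members that depend on those 2 libraries are given with and without them.

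To compare levels between genes, CPM was divided by the length of all annotated exons of a gene. On this per-kb scale, Erbb3 was the most abundant member, at 9.249 ± 1.52 CPM per kb (SD over all 6 libraries). It was followed by Tgfa (4.813 ± 0.89), Areg (4.644 ± 2.63), Erbb2 (3.208 ± 0.464) and Egfr (2.21 ± 0.313). The lower members were Hbegf (1.848 ± 0.594), Ereg (1.625 ± 1.05), Btc (0.9392 ± 0.308), Egf (0.201 ± 0.0706) and Erbb4 (0.01857 ± 0.00677). Erbb3 lay above Tgfa, Erbb2 above Egfr, Btc above Egf and Egf above Erbb4 in all 6 libraries. The other neighbours changed places in at least 1 library, and so were not separated: Tgfa lay above Areg in 5 libraries, Areg above Erbb2 in 5, Egfr above Hbegf in 4, Hbegf above Ereg in 4 and Ereg above Btc in 5. With the longest transcript as the length, Hbegf was at 3.269, Tgfa at 6.973, Egfr at 2.498 and Egf at 0.4304 CPM per kb.

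**Figure D1:**
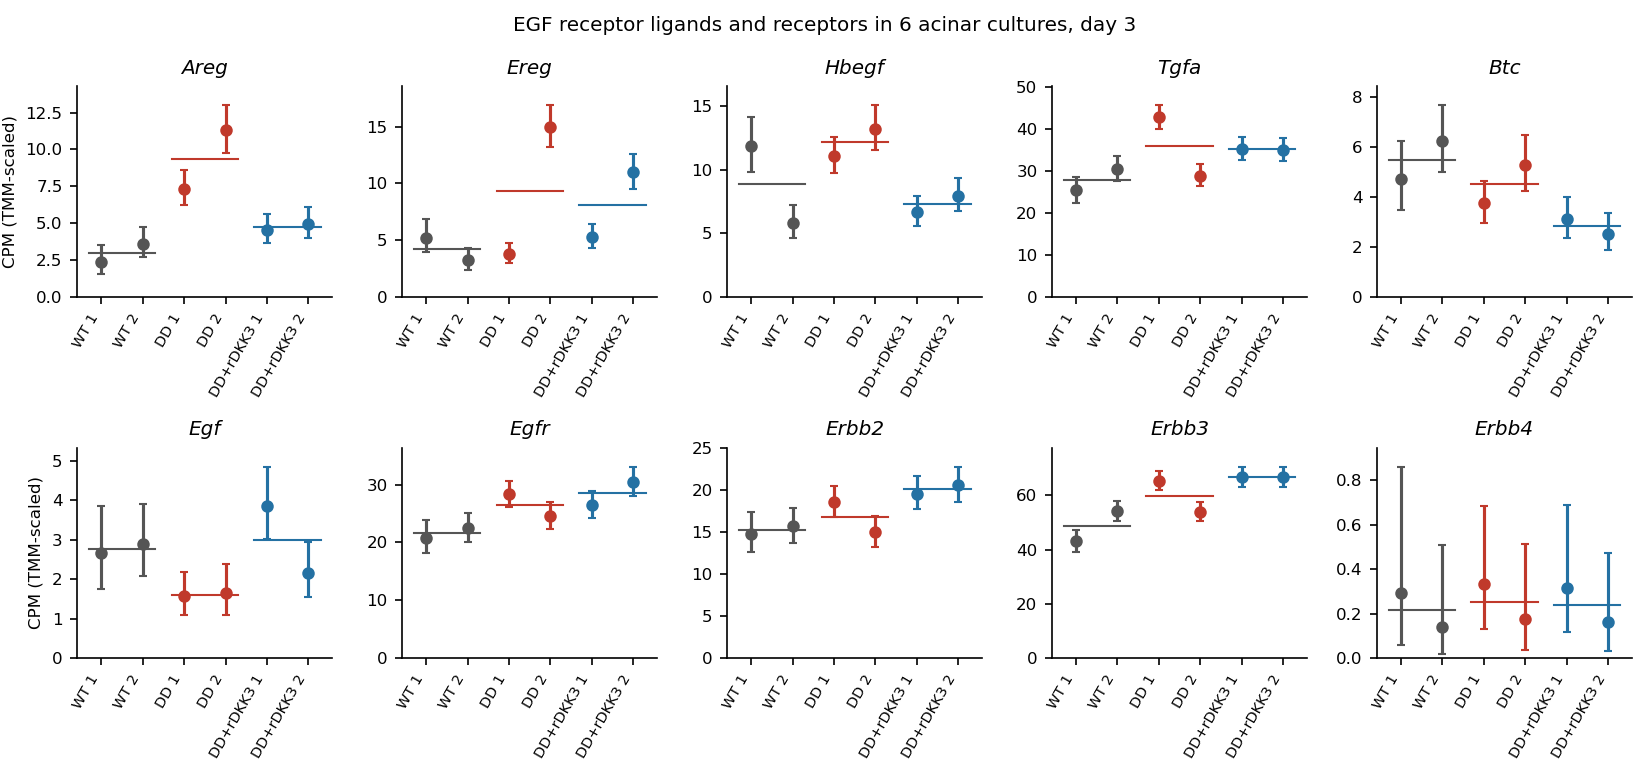
CPM of each ligand and receptor (y axes, linear from 0) in each of the 6 libraries (x axes). Points are libraries with exact 95% Poisson intervals, which cover counting error only, horizontal lines are group means, and grey, red and blue stand for WT, DD and DD + rDKK3; Areg is lowest in both WT libraries and highest in both DD libraries, Ereg is high in DD 2 and DD + rDKK3 2, and Erbb4 is near 0 throughout.

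The comparison of DD with WT asked how the receptors and their ligands differ when DKK3 is missing, and that of DD + rDKK3 with DD asked what the added protein does. Both use the DD libraries, and DD against WT shares the WT libraries with DD + rDKK3 against WT, so the contrasts are not independent and their values are set side by side only. No member passed an adjusted p under 0.05 in any contrast (quasi-likelihood test of edgeR, Benjamini-Hochberg adjusted over all genes tested). Over all genes the same threshold was passed by 0.0407% in DD against WT, 0% in DD + rDKK3 against DD and 0.0475% in DD + rDKK3 against WT. At an unadjusted p under 0.05 there was 1 member of 9 in DD against WT (Areg), beside 8.26% of all genes tested, 2 in DD + rDKK3 against DD (Areg and Egf), beside 1.98%, and 3 in DD + rDKK3 against WT (Btc, Egfr and Erbb3), beside 15.3%. DESeq2 called 1 member, Areg, in DD against WT and 0 in the other contrasts, and limma-voom called 0 in each.

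The groups did not overlap for 3 of 9 members in DD against WT (37.8% of all genes tested), 6 in DD + rDKK3 against DD (29.5%) and 7 in DD + rDKK3 against WT (55%). With 2 libraries against 2, an exact permutation test of 1 gene cannot give a two-sided p below 0.333. The median log2 fold change of the 9 members was 0.29, -0.029 and 0.39 in the 3 contrasts in that order, beside 0.016, -0.0028 and 0.017 over all genes tested. Taken apart, the medians were 0.41, -0.43 and 0.22 for the 6 ligands and 0.29, 0.16 and 0.39 for the 3 receptors tested.

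Areg encodes amphiregulin, an EGFR ligand. It lies on the plus strand of chromosome 5 (ENSMUSG00000029378.6, protein coding, 91287458 to 91296291 in GRCm39). Its canonical transcript in GENCODE M39, a later annotation than the one counted, starts at 91287451, 7 bases before the deposited gene start. All sequence windows here lie before such M39 starts, and positions count back from them. The 250 bases before this start, chr5:91287201-91287450 on the plus strand, held 1 cyclic AMP response element and 1 TATA box, shown in capitals, at bases -54 to -47 and -24 to -19. They are printed because Areg was the member whose levels separated the 3 groups. The sequence is read from GRCm39.

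Areg: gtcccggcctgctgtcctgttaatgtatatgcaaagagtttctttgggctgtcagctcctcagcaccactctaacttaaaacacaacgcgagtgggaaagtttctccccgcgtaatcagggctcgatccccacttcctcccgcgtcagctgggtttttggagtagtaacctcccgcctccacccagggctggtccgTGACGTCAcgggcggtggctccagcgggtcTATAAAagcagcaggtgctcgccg

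The element was searched as TGACGTCA, which reads the same on both strands, and was found in 1.68% of 21664 windows of the same length before other genes' canonical transcripts. The TATA box was searched as TATAAA on both strands, and 11.9% of windows held it. Areg was the only member with a match to either. A match describes the sequence and is no measure of binding.

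Areg was counted 24 and 51 times in the WT libraries, 155 and 192 in those of DD, and 86 and 92 with rDKK3. Scaled to depth, the WT libraries were at 2.358 and 3.582 CPM, the DD libraries at 7.335 and 11.29 CPM and the DD + rDKK3 libraries at 4.542 and 4.948 CPM. Every DD library thus lay above every other library, and both DD + rDKK3 libraries lay between DD and WT. Areg was 3.09-fold higher in DD than in WT (95% interval 1.86 to 5.15, log2 fold change 1.63, SE 0.316), with an unadjusted p of 0.00101 and an adjusted p of 0.393. By the unadjusted p it ranked 38 of 14738 genes. DESeq2, which the authors used, gave an adjusted p of 0.0169 for the same difference (log2 fold change 1.63), so the call depends on the test. Since the study had singled out Areg in these samples, its difference here is not independent evidence.

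With rDKK3, Areg was at 0.511 of its DD level (95% interval 0.315 to 0.829, log2 fold change -0.97, SE 0.3, unadjusted p 0.0129, adjusted p 1). It was lower than in DD in both libraries. The difference shrank to -0.63 without DD 2, the library with the highest Areg level, and was -1.27 without DD 1. DD + rDKK3 lay above WT by a log2 fold change of 0.66 (SE 0.318, 95% interval -0.08 to 1.40, adjusted p 0.345), which moved to 0.42 without WT 1 and 1.01 without WT 2. Without both libraries high in fibroblast markers, the Areg log2 fold changes were 1.29, -0.68 and 0.60 in the 3 contrasts. In DD 1, where those markers were at 82.11 CPM, Areg was at 7.335 CPM, above both WT libraries. As these were bulk samples, fewer cells of a type and less RNA per cell cannot be told apart.

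Ereg encodes epiregulin and is the nearest ligand gene to Areg, on the same strand of chromosome 5 (ENSMUSG00000029377.6, protein coding, 91222481 to 91241505). Its levels were 5.207 and 3.231 CPM in WT, 3.786 and 14.93 CPM in DD, and 5.281 and 10.97 CPM in DD + rDKK3. It was high in DD 2 and DD + rDKK3 2 and at 3.231 to 5.281 CPM in the other 4 libraries, so that within each knockout group 1 library differed from the other by more than the group means differed. The difference between DD and WT had a log2 fold change of 1.15 with a wide interval (SE 0.643, 95% interval -0.34 to 2.65, adjusted p 0.59). It turned to -0.14 without DD 2.

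The Ereg difference between DD + rDKK3 and DD was -0.20 (SE 0.608, adjusted p 1) and that between DD + rDKK3 and WT 0.96 (SE 0.643, adjusted p 0.451), the latter 0.34 without DD + rDKK3 2. Without both libraries high in fibroblast markers, the log2 fold changes were -0.15, 0.49 and 0.34 in the 3 contrasts. The libraries high in Ereg were those high in the fibroblast and stellate list (857.4 and 954.5 CPM), and they also had the highest macrophage marker sums, 327.2 and 244.6 CPM against 142.4 to 239.5 CPM in the others. The part of other cell types in the Ereg values was not tested. A long noncoding RNA on the opposite strand, Gm19610, overlaps the start of Ereg. It was counted 2 and 7 times in the WT libraries, 4 and 17 in those of DD, and 5 and 13 with rDKK3, from libraries and counting that kept the strand.

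**Figure D2:**
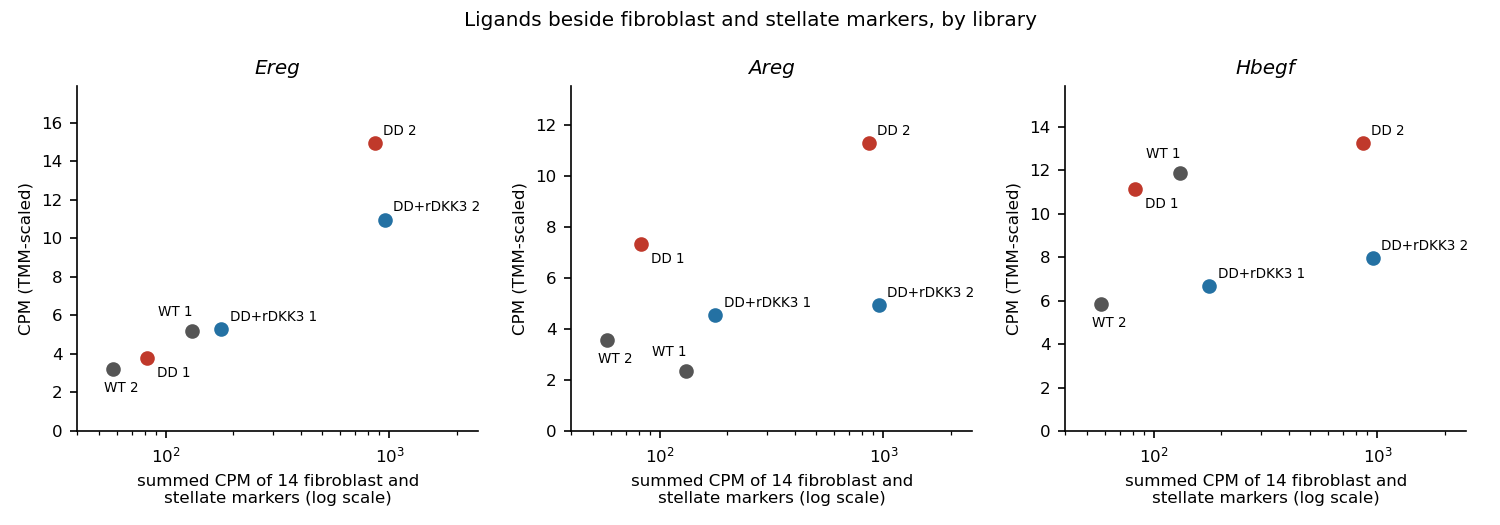
CPM of Ereg, Areg and Hbegf (y axes, linear) against the summed CPM of 14 fibroblast and stellate markers (x axes, log scale), with 1 point per library and colours by group. Ereg is highest in the 2 libraries with the highest marker sums, whereas Areg is above the WT and DD + rDKK3 libraries in DD 1, whose marker sum is 82.11 CPM.

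The third ligand gene of the same stretch is Btc, which encodes betacellulin, a ligand of EGFR and ERBB4. It lies on the minus strand (ENSMUSG00000082361.7, protein coding, 91505120 to 91550853), and its levels were 4.715 and 6.251 CPM in WT, 3.739 and 5.291 CPM in DD, and 3.116 and 2.528 CPM in DD + rDKK3. Both DD + rDKK3 libraries lay below the other 4, while WT and DD overlapped. Btc in DD + rDKK3 was at 0.514 of its WT level (95% interval 0.314 to 0.84, log2 fold change -0.96, SE 0.305, unadjusted p 0.0144, adjusted p 0.321) and at 0.627 of its DD level (0.385 to 1.02, log2 fold change -0.67, SE 0.302, adjusted p 1). The latter was -0.40 without DD 2 and -0.26 without both libraries high in fibroblast markers. Between DD and WT the log2 fold change was -0.29 (SE 0.299, adjusted p 0.717), and it ranged from -0.033 without DD 1 and -0.06 without WT 2 to -0.56 without DD 2.

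Together with Epgn, which encodes epigen and had at most 1 count in any library, these ligand genes span 375.5 kb of chromosome 5 (91175323 to 91550853) with 7 annotated genes. The neighbours differed among themselves in pattern. Areg was highest in DD, Ereg in DD 2 and DD + rDKK3 2, and Btc was lowest in DD + rDKK3. Over the 6 libraries, Pearson's r of log2 CPM was 0.539 between Areg and Ereg, -0.042 between Areg and Btc and -0.252 between Ereg and Btc, given as a description over libraries that share groups.

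Hbegf encodes heparin-binding EGF-like growth factor, which binds EGFR and ERBB4 (ENSMUSG00000024486.7, protein coding, minus strand of chromosome 18, 36637980 to 36648858). Its levels were 11.89 and 5.83 CPM in WT, 11.12 and 13.23 CPM in DD, and 6.655 and 7.96 CPM in DD + rDKK3. Both DD + rDKK3 libraries lay below both DD libraries, whereas WT covered almost the whole range. The log2 fold change between DD + rDKK3 and DD was -0.73 (SE 0.323, 95% interval -1.49 to 0.016, unadjusted p 0.0538, adjusted p 1), and without the libraries high in fibroblast markers it was -0.73 too. The difference between DD and WT was 0.47 (SE 0.326, adjusted p 0.617) and rested on which WT library was kept, at 0.039 without WT 2 and 1.08 without WT 1. For DD + rDKK3 against WT it was -0.26 (SE 0.33, adjusted p 0.689) and turned to 0.34 without WT 1.

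Tgfa encodes TGF-alpha, an EGFR ligand whose transgenic expression is known to produce ductal metaplasia in the mouse pancreas (ENSMUSG00000029999.15, protein coding, plus strand of chromosome 6, 86172205 to 86252701). Its levels were 25.35 and 30.41 CPM in WT, 42.69 and 28.81 CPM in DD, and 35.23 and 34.91 CPM in DD + rDKK3. DD 1 had the highest value and DD 2 lay between the WT libraries, so DD overlapped both other groups. DD differed from WT by a log2 fold change of 0.36 (SE 0.209, 95% interval -0.13 to 0.84, adjusted p 0.595), DD + rDKK3 from DD by -0.029 (SE 0.206, adjusted p 1) and DD + rDKK3 from WT by 0.33 (SE 0.209, adjusted p 0.435). The first was 0.069 without DD 1 and 0.61 without DD 2, and the second turned to 0.26 without DD 1.

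Egf encodes the founding ligand of the family, which is made as a long precursor (ENSMUSG00000028017.8, protein coding, minus strand of chromosome 3, 129471214 to 129548965). It was scarce, counted 27 and 41 times in the WT libraries, 33 and 28 in those of DD, and 73 and 40 with rDKK3. Scaled to depth, the WT libraries were at 2.652 and 2.88 CPM, the DD libraries at 1.562 and 1.646 CPM and the DD + rDKK3 libraries at 3.855 and 2.151 CPM. Both DD libraries were the lowest of the 6. Egf in DD was at 0.58 of its WT level (95% interval 0.317 to 1.06, log2 fold change -0.79, SE 0.375, unadjusted p 0.0706, adjusted p 0.586), and with rDKK3 it was 1.87-fold its DD level (1.04 to 3.38, log2 fold change 0.90, SE 0.366, unadjusted p 0.0404, adjusted p 1). That second value rested largely on DD + rDKK3 1, without which it was 0.41, and it was 1.31 without both libraries high in fibroblast markers. DD + rDKK3 and WT overlapped (log2 fold change 0.12, SE 0.364, adjusted p 0.885), and the difference turned to -0.36 without DD + rDKK3 1.

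**Figure D3:**
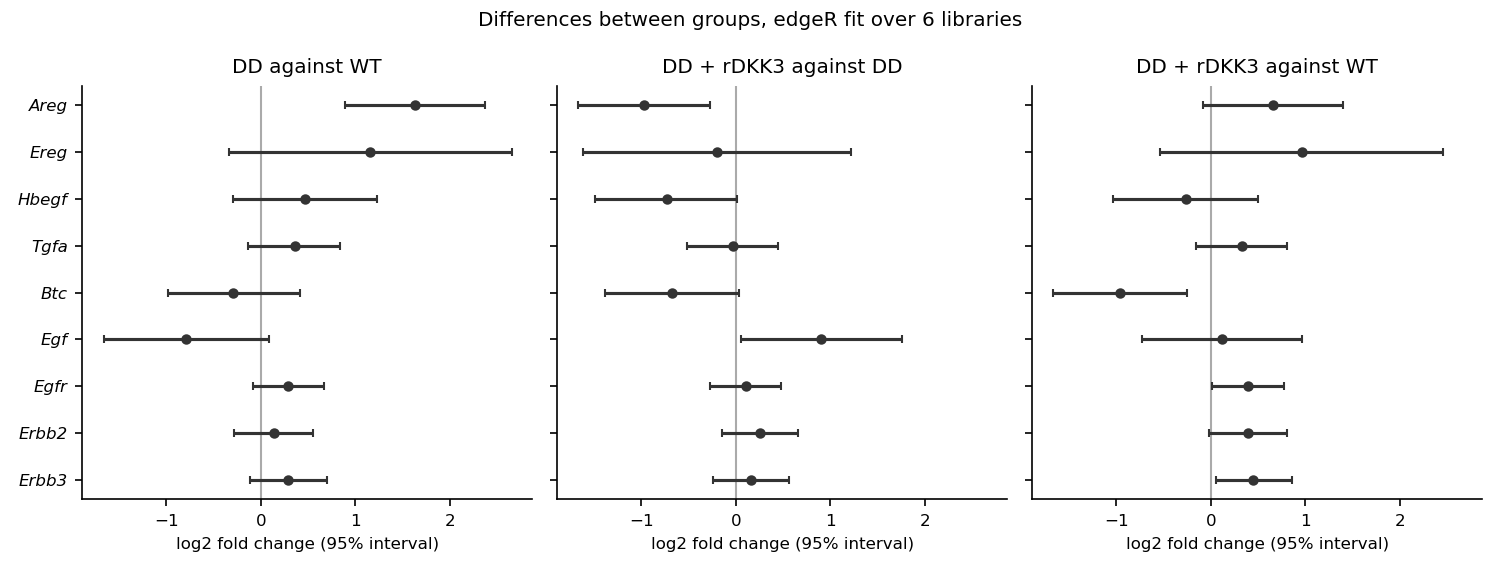
Log2 fold changes (x axes) of the 9 members tested (y axes) in the 3 contrasts, with 95% intervals from the edgeR fit over all 6 libraries. The intervals lie wholly above 0 for Areg in DD against WT, for Egf in DD + rDKK3 against DD and for Egfr and Erbb3 in DD + rDKK3 against WT, and wholly below 0 for Areg in DD + rDKK3 against DD and for Btc in DD + rDKK3 against WT; no adjusted p was under 0.05.

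Summed per kb over the 6 ligands, the ligand message was 10.39 and 10.86 CPM per kb in WT, 16.22 and 20.69 CPM per kb in DD, and 12.36 and 13.91 CPM per kb in DD + rDKK3. Areg made up 18.6% and 27% of it in the WT libraries, 37% and 44.6% in those of DD, and 30.1% and 29.1% with rDKK3. Tgfa was the largest part in every library except DD 2, where it made up 20.4% of the sum and Areg stood first. It made up 35.7% to 41.7% in the other 5. Egf was never above 2.55%. These shares are of transcripts, not of protein, and they depend on the exon lengths used.

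**Figure D4:**
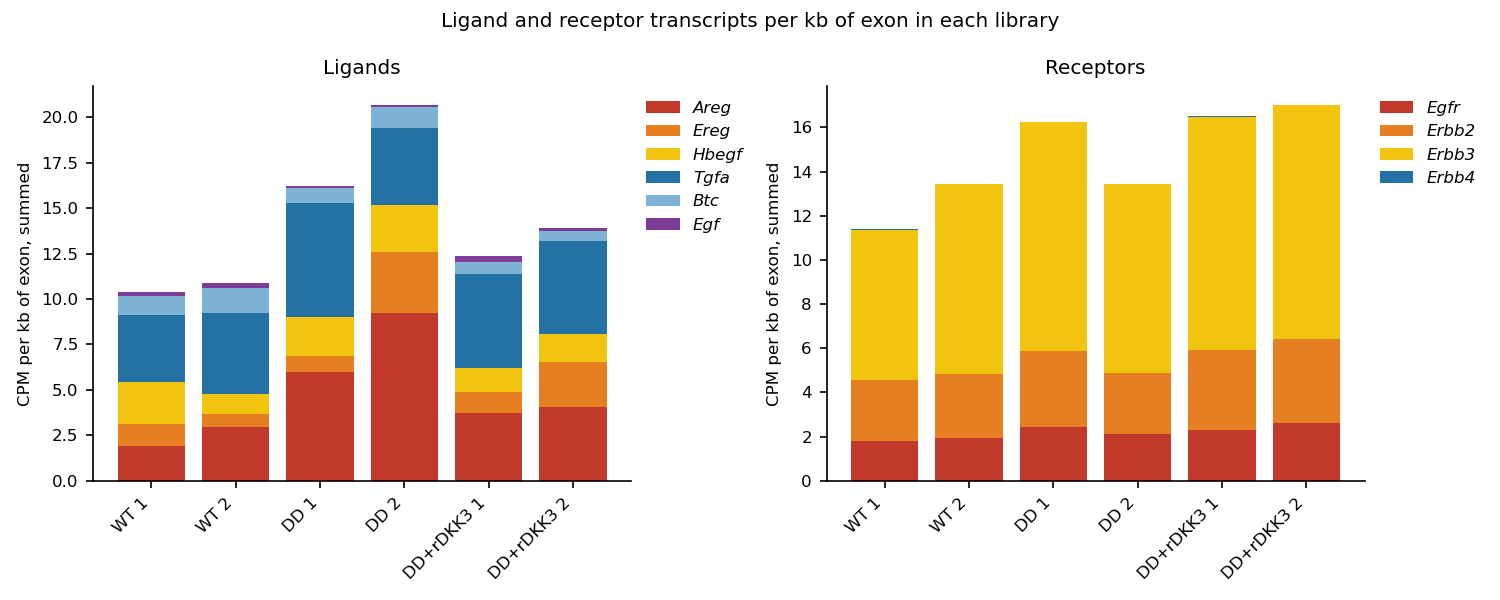
Stacked CPM per kb of exon (y axes, linear from 0) of the 6 ligands (left) and 4 receptors (right) in each library (x axes). The ligand sum is highest in DD 1 and DD 2, at 16.22 and 20.69 CPM per kb, where Areg is the part that differs most from WT, and Erbb3 makes up 60% to 64% of the receptor sum in every library.

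Among the receptors, Egfr, which binds all the ligands above, lies on the plus strand of chromosome 11 (ENSMUSG00000020122.17, protein coding, 16702203 to 16868158). Its levels were 20.83 and 22.48 CPM in WT, 28.35 and 24.57 CPM in DD, and 26.51 and 30.44 CPM in DD + rDKK3. All 4 knockout libraries lay above both WT libraries, and DD and DD + rDKK3 overlapped. DD differed from WT by a log2 fold change of 0.29 (SE 0.162, 95% interval -0.087 to 0.67, adjusted p 0.59), DD + rDKK3 from DD by 0.11 (SE 0.159, 95% interval -0.27 to 0.48, adjusted p 1) and DD + rDKK3 from WT by 0.39 (SE 0.162, 95% interval 0.018 to 0.77, unadjusted p 0.0422, adjusted p 0.321). The second turned to -0.0041 without DD + rDKK3 2. In the 250 bases before its M39 transcript start (16702198, 5 bases before the deposited one) there was 1 match to the ETS motif CCGGAAG, which 6.86% of all windows held on either strand.

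Erbb3, the partner receptor with a weak kinase, lies on the minus strand of chromosome 10 (ENSMUSG00000018166.9, protein coding, 128403392 to 128425521). Its levels were 43.13 and 54.16 CPM in WT, 65.36 and 53.91 CPM in DD, and 66.65 and 66.75 CPM in DD + rDKK3. Both DD + rDKK3 libraries were the highest of the 6, and DD 2 lay at the level of WT 2. The log2 fold change of DD + rDKK3 against WT was 0.45 (SE 0.173, 95% interval 0.051 to 0.86, unadjusted p 0.0319, adjusted p 0.321), with 0.29 (SE 0.173, adjusted p 0.595) between DD and WT and 0.16 (SE 0.172, adjusted p 1) between DD + rDKK3 and DD. The difference between DD and WT was 0.15 without WT 1, 0.17 without DD 1 and 0.47 without WT 2, and that between DD + rDKK3 and DD was 0.031 without DD 2 and 0.28 without DD 1.

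Erbb2 encodes the receptor without a ligand of its own (ENSMUSG00000062312.6, protein coding, plus strand of chromosome 11, 98303296 to 98328542). Its levels were 14.83 and 15.73 CPM in WT, 18.6 and 14.99 CPM in DD, and 19.59 and 20.6 CPM in DD + rDKK3. As with Erbb3, both DD + rDKK3 libraries were the highest and DD 2 lay within the WT range. The log2 fold changes were 0.14 (SE 0.178, adjusted p 0.774), 0.26 (SE 0.175, adjusted p 1) and 0.39 (SE 0.177, unadjusted p 0.0587, adjusted p 0.333) for the 3 contrasts, and the first was -0.0044 without DD 1 and 0.28 without DD 2. The second was 0.11 without DD 2, 0.40 without DD 1 and 0.082 without both libraries high in fibroblast markers.

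Erbb4, which also binds neuregulins, was counted 3 and 2 times in the WT libraries, 7 and 3 in those of DD, and 6 and 3 with rDKK3 (ENSMUSG00000062209.16, protein coding, minus strand of chromosome 1, 68071345 to 69147218). Its levels of 0.1405 to 0.3313 CPM were close to the floor of 3 counts, which was 0.142 to 0.2947 CPM, so a difference between groups was not detectable at this depth. In a fit without the filter its log2 fold changes were 0.35, -0.11 and 0.24 (adjusted p 0.986, 1 and 1). The receptor message was therefore nearly all Erbb3 (60% to 64% of the summed CPM per kb), Erbb2 (20.5% to 24%) and Egfr (13.9% to 15.8%), in proportions that differed little between libraries.

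The 3 receptors tested varied together over the 6 libraries, with Pearson's r of log2 CPM of 0.919 between Egfr and Erbb3, 0.900 between Erbb2 and Erbb3 and 0.889 between Egfr and Erbb2. Of the ligands, Tgfa was nearest to this pattern (0.887 with Erbb3) and Btc ran against it (-0.908 with Erbb2). These values describe 6 libraries that share groups and scaling factors. When counts were scaled by total alone, without TMM, the median over all genes shifted to 0.22 (DD against WT) and 0.18 (DD + rDKK3 against WT) on the log2 scale, as large as some of the receptor differences, so small values are read relative to TMM scaling.

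Tgfa and Erbb3 were the members with an AP-1 motif, searched as TGACTCA on both strands, in the same 250 bases. The motif is in capitals, and 4.03% of all windows held it. The Tgfa window is chr6:86171791-86172040 on the plus strand and the Erbb3 window chr10:128425537-128425786 on the minus strand, both in GRCm39, and they are shown for comparison with Areg, which had no AP-1 match.
Tgfa: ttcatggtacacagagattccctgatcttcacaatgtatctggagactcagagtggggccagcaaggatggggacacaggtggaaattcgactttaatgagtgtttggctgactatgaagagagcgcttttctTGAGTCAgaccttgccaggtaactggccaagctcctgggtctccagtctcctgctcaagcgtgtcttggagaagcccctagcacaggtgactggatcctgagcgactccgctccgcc
Erbb3: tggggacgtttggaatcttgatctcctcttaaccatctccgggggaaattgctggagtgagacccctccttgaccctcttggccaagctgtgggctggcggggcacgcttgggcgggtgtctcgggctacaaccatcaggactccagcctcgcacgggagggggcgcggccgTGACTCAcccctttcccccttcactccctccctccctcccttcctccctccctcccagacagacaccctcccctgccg
The first base of the motif lay at -117 in Tgfa and -78 in Erbb3, counted from the M39 transcript starts at 86172041 and 128425536, which lie 164 and 15 bases before the deposited gene starts.

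The genes most like Areg over the 6 libraries, among 11857 genes with an average log2 CPM of at least 1, were Crybg2 (Pearson's r 0.995), Serpinb9b (0.990), Gm36099 (0.979), Soat2 (0.977) and Aplf (0.972). Serpinb9b, a member of a serpin family of protease inhibitors, was at 8.35 and 13.84 CPM in WT, 33.17 and 67.9 CPM in DD, and 18.06 and 26.35 CPM in DD + rDKK3, the same order of groups as Areg. Those most like Egfr were Nolc1 (0.999), Ptpn11 (0.998), Lnx2 (0.993), Wasf2 (0.992) and Shtn1 (0.992). Ptpn11 encodes SHP2, a phosphatase that acts downstream of EGFR, and was at 86.35 and 93.84 CPM in WT, 117.4 and 100.8 CPM in DD, and 109.1 and 122.9 CPM in DD + rDKK3. These values rank genes over 6 libraries and carry no p.

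The other genes of the pathway were examined by list. No gene of these lists passed an adjusted p under 0.05 in any contrast in edgeR with the low-count filter and no block for the replicate number, nor in limma-voom. A block with the WT numbers crossed, backed by no label, called 1 gene of ligand shedding and 2 of ERK output in DD against WT. It also called 1 gene of ERK output in DD + rDKK3 against DD and 1 of ligand shedding in DD + rDKK3 against WT. DESeq2 called Phlda1 of the ERK output list both in DD against WT (adjusted p 0.000255) and between DD + rDKK3 and DD (adjusted p 0.0432). Without the filter, edgeR called Phlda1 in both of these contrasts, Dusp6 in DD against WT and the shedding gene Adam12 in both contrasts with WT. Of 5 other ErbB ligands, Epgn and Nrg2 had at most 1 count in any library, Nrg3 had 0, and the neuregulin genes Nrg1 and Nrg4 were tested. Nrg4 was at 6.287 and 7.375 CPM in WT, 6.342 and 6.114 CPM in DD, and 5.017 and 5.002 CPM in DD + rDKK3, lowest in both DD + rDKK3 libraries (log2 fold change against WT -0.45, SE 0.218, adjusted p 0.346). Nrg1 lay between 0 and 0.6467 CPM, at or below the floor in WT 1 and both DD + rDKK3 libraries.

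The 10 genes of ligand shedding (ADAM proteases, rhomboids and their cofactors) all had a positive log2 fold change in DD against WT, with a median of 0.28, and 3 had an unadjusted p under 0.05. Over all genes tested, 51.7% were higher in this contrast and 8.26% had such a p. The 3 became 0 without WT 1 or WT 2 and 1 without DD 1 or either DD + rDKK3 library, and the 10 became 7 without WT 2 and 8 without either DD library. Frmd8, a cofactor that stabilises the sheddase ADAM17 at the cell surface, was at 25.44 and 24.65 CPM in WT, 35.78 and 30.92 CPM in DD, and 31.37 and 37.7 CPM in DD + rDKK3 (0.41 for DD against WT, SE 0.162, adjusted p 0.586, beside 0.46 for DD + rDKK3 against WT, SE 0.162, adjusted p 0.321). The largest value, 2.21 for the metalloprotease gene Adam12, came with levels of 16.52 and 18.23 CPM in DD 2 and DD + rDKK3 2 and 1.686 to 4.489 CPM in the others, the same libraries that were high in fibroblast markers. Without both of these libraries, 8 of the 10 were higher in DD than in WT, with a median of 0.32, and none had an unadjusted p under 0.05. In DD + rDKK3 against DD, 7 were higher and 3 lower, with a median of 0.083 that became 0.014 without DD 2 and -0.046 without DD + rDKK3 2.

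Of 13 receptor inhibitors, which include ubiquitin ligases and feedback proteins that limit ErbB signalling, 10 were higher in DD than in WT (median 0.15, and 0.29 without WT 2) and 1, Socs5, had an unadjusted p under 0.05 (log2 fold change 0.62, SE 0.258, adjusted p 0.586). For this contrast, 51.7% of all genes tested were higher and 8.26% had such a p. In DD + rDKK3 against WT, 12 were higher (median 0.33) and 5 had an unadjusted p under 0.05, beside 51.6% and 15.3% of all genes tested. The 5 became 1 without WT 1 or DD + rDKK3 1 and 0 without DD + rDKK3 2. Among them were the leucine-rich repeat inhibitors Lrig1 (0.44, SE 0.163, adjusted p 0.321) and Lrig3 (0.70, SE 0.271, adjusted p 0.321). Errfi1, a feedback inhibitor of EGFR, had 252.4 and 254.7 CPM in WT, 283 and 276.7 CPM in DD, and 318.9 and 341.4 CPM in DD + rDKK3. Of 15 adaptors, 13 were higher in DD than in WT (median 0.21, from 0.15 without WT 1 to 0.34 without WT 2 or DD 2). In DD + rDKK3 against WT, 14 adaptors were higher (median 0.36, from 0.29 without WT 1 to 0.49 without WT 2). Over all genes tested, 51.7% and 51.6% were higher in these contrasts. An unadjusted p under 0.05 was found for 1 adaptor in the first of them and 5 in the second, beside 8.26% and 15.3% of all genes tested. The PI3K subunit genes Pik3cb (log2 fold change 0.60 between DD and WT, SE 0.211, adjusted p 0.586) and Pik3r1 (0.55 between DD + rDKK3 and WT, SE 0.151, adjusted p 0.321) had the smallest p of their list in those contrasts. The 13 genes of receptor trafficking had medians of -0.031, -0.036 and -0.047 in the 3 contrasts, although the first turned to 0.016 without WT 1, 0.029 without DD 1 and 0.03 without DD 2, and with scaling by library size alone all 13 were higher in DD than in WT.

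The 15 genes of the ERK output list are targets and feedback inhibitors that rise when ERK is active. Of these, 13 were higher in DD than in WT (median 0.27, 3 at an unadjusted p under 0.05, all higher), and 13 were lower in DD + rDKK3 than in DD (median -0.36, 4 at an unadjusted p under 0.05, all lower). Over all genes tested, 51.7% were higher and 8.26% had such a p in the first of these contrasts, and 49.5% were higher and 1.98% had such a p in the second. Leaving out 1 library moved the second median between -0.46 and -0.24, and its 4 genes to between 2 (without DD + rDKK3 1) and 6 (without WT 2). Without both libraries high in fibroblast markers, these counts were 11 of 15 (median 0.25) and 13 of 15 (median -0.34). Dusp6, a phosphatase of ERK, was at 15.82 and 13.63 CPM in WT, 21.63 and 27.75 CPM in DD, and 13.41 and 17.16 CPM in DD + rDKK3 (log2 fold change 0.75 in DD against WT, SE 0.21, adjusted p 0.586). The cyclin gene Ccnd1 was at 31.14 and 27.67 CPM in WT, 32.65 and 29.45 CPM in DD, and 19.07 and 18.72 CPM in DD + rDKK3, so that it was lowest in both DD + rDKK3 libraries (-0.72 against DD, SE 0.151, adjusted p 1). Phlda1 was 1.01 higher in DD than in WT on the log2 scale (SE 0.154, adjusted p 0.23) and 0.85 lower after rDKK3.

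**Figure D5:**
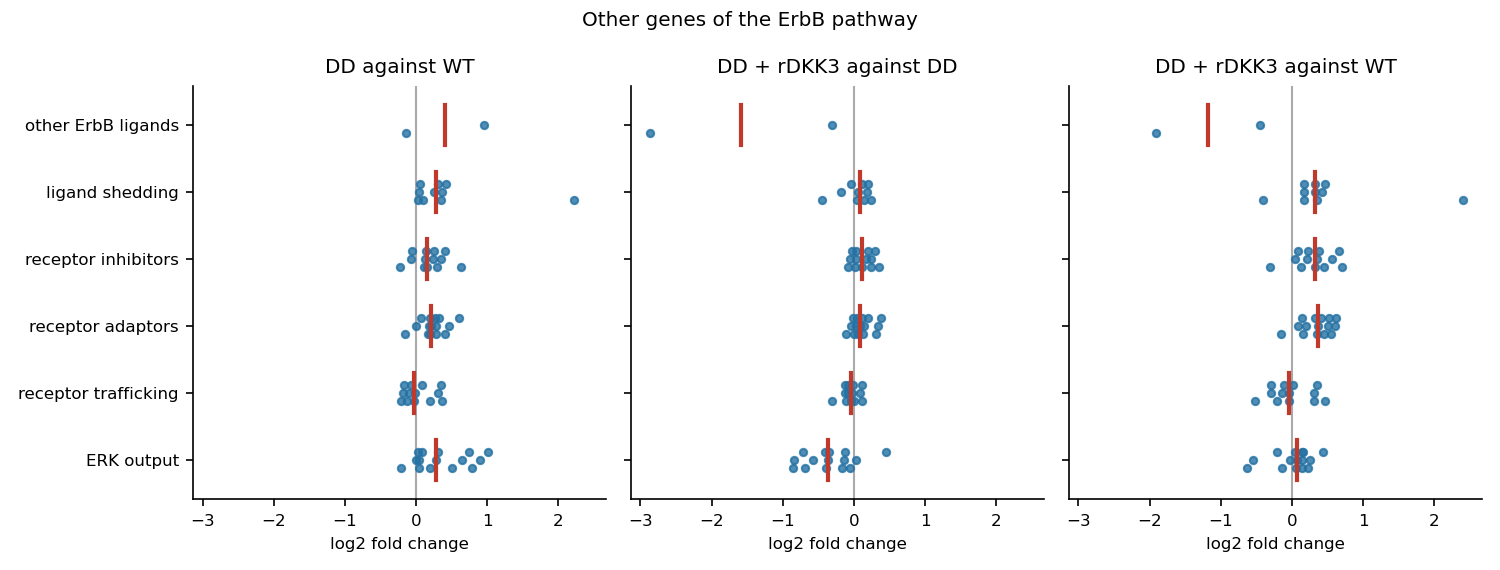
Log2 fold changes (x axes) of the genes tested in 6 lists of the ErbB pathway (y axes) in the 3 contrasts, with 1 blue point per gene and a red bar at each list's median. The ERK output median is 0.27 in DD against WT and -0.36 in DD + rDKK3 against DD, and the trafficking medians stay near 0.

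Marker lists of cell types had the following values beside these. Of 14 acinar markers, 11 were lower in DD than in WT (median log2 fold change -0.47, and -0.18 without WT 1). All 14 were higher in DD + rDKK3 than in DD (median 0.23), but without DD + rDKK3 1 this was 8 of 14 (median 0.058). In edgeR with the filter and no block for the replicate number, no acinar marker was called. DESeq2 called Cpb1 lower in DD against WT, and edgeR without the filter called Cela1 and Pnlip lower there. In DD + rDKK3 against WT, edgeR without the filter called Cela1 lower (-0.90, adjusted p 0.0212). In the same fit and contrast, Ptf1a (0.74, adjusted p 0.0173) and Bhlha15 (0.89, adjusted p 0.000588) were called higher. The 13 ductal markers had medians of 0.035 in DD against WT (-0.11 without WT 2, 0.16 without WT 1) and -0.31 in DD + rDKK3 against DD (-0.14 without DD 1), with summed levels of 4851 to 7116 CPM. Among them, edgeR without the filter called Tspan8 higher in DD against WT (1.03, adjusted p 1.86e-05) and lower in DD + rDKK3 against DD (-1.12, adjusted p 1.1e-05). It called Car2 lower in DD + rDKK3 against WT (-1.09, adjusted p 0.0317). Of the 14 fibroblast and stellate markers, 13 were higher in DD (median 1.82) and 13 in DD + rDKK3 (median 2.05) than in WT. Those medians were -0.34 without DD 2 and 0.69 without DD + rDKK3 2. For 10 macrophage markers they were 0.45 and 0.55, and -0.76 and -0.33 without those libraries. DESeq2 called the macrophage marker Cd14 lower than in WT in DD (-0.71, adjusted p 0.0394) and in DD + rDKK3 (-1.02, adjusted p 0.000129). Without the filter, edgeR called Cd14 lower and Mrc1 and Lyz2 higher in both contrasts with WT. Of 8 islet markers, 7 were lower in DD (median -0.29, from -0.68 without DD 2 to -0.13 without DD 1) and 7 in DD + rDKK3 (median -0.54, from -0.90 without DD + rDKK3 1 to -0.28 without DD + rDKK3 2) than in WT. The summed level of the islet markers was 156.5 to 289.4 CPM, that of 8 endothelial markers was 81.93 to 140.7 CPM, and no marker of any list was at 0 in any library. Of the islet markers, edgeR without the filter called Ppy lower in both contrasts with WT and Gcg lower in DD + rDKK3 against WT. The part of these shifts in the ligand and receptor values was not tested.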

How the data were processed

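Bulk RNA-seq of 6 libraries was analysed, 2 in each of 3 groups taken from the sample titles. The authors deposited raw counts, whole numbers per gene and library. Per their methods, strand-specific paired 50-base reads were aligned with STAR 2.7.9a to GRCm39 with the basic GENCODE M32 annotation, and exonic alignments were counted in union mode, which leaves out reads over more than 1 feature, and summed per gene. Isoforms cannot be told apart in such counts. Of 57045 rows, 92 name spike-in RNAs, hold 0 counts and were left out.

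From these counts, genes were kept by filterByExpr (minimum count 10, minimum total 15), scaled by TMM and fitted over all 6 libraries with edgeR 4.0.16 (R 4.3.3), with Benjamini-Hochberg adjustment over 14738 genes and a threshold of 0.05. Residual degrees of freedom were 3 and prior degrees of freedom 4.634, and the common coefficient of biological variation was 0.2148. The procedure was tested on simulated counts. Exon lengths and transcript starts came from GENCODE M39, later than the counted annotation. Intervals of counts are exact 95% Poisson intervals, and they and the floor of 3 counts cover counting error only. Replicates differed by more than counting noise in every group. DESeq2 1.42.0, limma-voom (limma 3.58.1), other scalings, filters, replicate blocks and leaving out libraries were alternatives.

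The members and the 12 gene lists were chosen with earlier results of these data known. All members are named, with up to 2 genes of smallest p per pathway list and contrast, of which those the text turns on are printed, and 5 genes most like Areg and Egfr. Serpinb9b and Ptpn11 were picked from these for their values.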

Additional observations from a re-analysis of the deposited data

How the results depend on the processing

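Of 486 log2 fold changes of members under alternatives, 469 kept their direction and their side of the threshold, 5 passed the threshold and 12 changed sign. Without the low-count filter, 528, 73 and 788 genes were called for the first contrast (DD against WT), the second (DD + rDKK3 against DD) and the third (DD + rDKK3 against WT), in place of 6, 0 and 7, and with them 2 members in the first (Areg, 1.68, adjusted p 3.83e-05, and Ereg, 1.21, adjusted p 0.00453) and 1 in the third (Ereg, 1.01, adjusted p 0.0321). DESeq2 called 80, 5 and 74 genes and 1 member (Areg in DD against WT), and limma-voom called 8 genes in the first contrast and 3 in the third. The cause was not tested. Without the filter, 11 of 14 fibroblast and stellate markers were also called in the first contrast, although their sum was 82.11 CPM in DD 1 and 857.4 CPM in DD 2. Leaving out 1 library gave 2 to 6 genes in DD against WT (2 without WT 1, WT 2 or DD 1), 0 in DD + rDKK3 against DD and 2 to 9 in DD + rDKK3 against WT (2 without WT 1 or WT 2, 3 without DD + rDKK3 1), with no member called. Leaving out both libraries high in fibroblast markers, chosen after seeing the data, gave 14, 0 and 10 genes and no member, with the single knockout libraries assumed to vary like WT.

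With the replicate number as a block over all 6 libraries, 7, 0 and 5 genes were called and no member, and with the block within the Dkk3-null libraries 20, 0 and 15 and no member. Same-numbered libraries deviated together in DD and DD + rDKK3 (r 0.65) but not in WT and DD (-0.387) or WT and DD + rDKK3 (-0.247), and the labels name no shared mouse, so the numbers were not treated as pairs. A block with the WT numbers crossed, added after seeing the data and backed by no label, called 296, 29 and 566 genes, and 1 member in DD against WT.

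Where a value of a member changed sign, the range without single libraries was -0.14 (without DD 2) to 1.86 for Ereg in DD against WT, -0.0044 (without DD 1) to 0.28 for Erbb2 in DD against WT, -0.90 to 1.10 for Ereg in DD + rDKK3 against DD (1.10 without DD 2, 0.22 without DD + rDKK3 1), -0.28 to 0.26 for Tgfa there (0.26 without DD 1), -0.0041 (without DD + rDKK3 2) to 0.19 for Egfr there, -0.70 to 0.34 for Hbegf in DD + rDKK3 against WT (0.34 without WT 1) and -0.36 (without DD + rDKK3 1) to 0.48 for Egf there. Without both libraries high in fibroblast markers, Ereg was at -0.15 in DD against WT and 0.49 in DD + rDKK3 against DD, and Egfr at -0.089 in the latter, where limma-voom gave 0.072 for Ereg. Depth limits Egf, with 27 to 73 counts, and Erbb4, with 2 to 7.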
